A study of Mus musculus with 6 samples.

Results

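Thy1, S100a4, Fap, Ddr2, Cd34, Ly6a, Dpp4, Pdpn, Cd44 and Nt5e are genes commonly read as markers of fibroblasts and of their subsets. They were followed here in mouse embryonic fibroblasts (MEFs), connective tissue cells grown in culture from mouse embryos. A marker was measured by every array probe set, a group of short oligonucleotides against 1 transcript, whose annotation names that gene and no other. Of the 10 genes listed, 9 were measured, by 18 probe sets, out of 18193 genes that a probe set names singly. No probe set in the annotation used here names Ly6a (Sca-1), which was not analysed here. The rule that picks their probe sets uses no measured value, but the genes themselves were chosen with earlier results of these data known.

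Total RNA was hybridised to 6 Affymetrix mouse expression arrays, 3 for Atxn3-WT MEFs and as many for Atxn3-KO MEFs, with 1 sample per array. Atxn3-WT cells carry the wildtype gene and Atxn3-KO cells are knockout for Atxn3, which encodes ataxin-3, a deubiquitinating enzyme. The study describes its Atxn3-KO and WT mice as littermates, and MEFs of both genotypes were kept in the same serum-containing medium, with no drug named for the array samples. The study calls the 3 samples of a genotype biological replicates, and how the allele was made, the strain, the age of the embryos and the number of embryos or separate cultures are not given in the sources used here. The p-values therefore rest on the differences among these samples alone, and those may be technical.

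Fibroblasts have no single defining gene, and are usually recognised by a combination of surface proteins, matrix genes and transcription factors. Thy1 (CD90) is a small glycoprotein held in the outer membrane by a glycosylphosphatidylinositol (GPI) anchor, and is also found on T cells and neurons. CD34, SCA-1 and DPP4 (CD26) are used to sort progenitor-like fibroblasts from skin and other connective tissues, while FAP and podoplanin are used to follow activated stroma. CD44 and CD73, the product of Nt5e, belong together with Thy1 to the surface antigens by which cultured mesenchymal stromal cells are typed. None of these genes is restricted to fibroblasts.

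The 250 bases before the annotated start are shown for Cd34 and Pdpn, the markers with the largest reduction and with the increase among those that have an entry in the RefSeq promoter table of GRCm38.p6. Capitals mark CG dinucleotides, the substrate of DNA methylation, and each sequence runs 5′ to 3′ along the gene's strand.
Cd34: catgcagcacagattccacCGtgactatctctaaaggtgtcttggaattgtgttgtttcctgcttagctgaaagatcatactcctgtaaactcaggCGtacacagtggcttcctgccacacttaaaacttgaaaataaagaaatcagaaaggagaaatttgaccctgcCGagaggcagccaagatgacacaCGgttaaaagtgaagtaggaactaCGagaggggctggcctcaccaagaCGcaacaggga
Pdpn: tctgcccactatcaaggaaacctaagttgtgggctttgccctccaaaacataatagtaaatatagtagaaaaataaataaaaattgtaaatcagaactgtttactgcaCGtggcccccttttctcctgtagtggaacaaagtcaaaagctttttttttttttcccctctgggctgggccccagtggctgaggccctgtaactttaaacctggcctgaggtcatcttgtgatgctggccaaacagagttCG
The Cd34 window lies at chr1:194938571-194938820 on the plus strand and has a GC content of 46.4% with 6 CG dinucleotides. The Pdpn window, at chr4:143299565-143299814 on the minus strand, has a GC content of 43.2% and 2 CG. Over 32851 windows of 27025 genes the median GC content was 52.4% and the median number of CG was 6, so both windows had a lower GC content than the median, and that of Pdpn also fewer CG. Entries were found for 7 of the 10 listed genes. The entry for Ddr2 lies wholly inside the gene, before a transcript start other than the gene's outer end, so it was counted but is not shown as the promoter of Ddr2. Motifs were searched on both strands, and no motif contains another. The TATA box letters TATAAA were found in 3 of the 7 windows, those of S100a4 and Dpp4 and the one inside Ddr2, and in 12.4% of all windows. The GC box letters GGGCGG were found in 1 of the 7, that of Nt5e, and in 32.7% of all. The letters CCAAT were found in 0 of the 7 and in 33.8% of all. Thus the Nt5e window, with a GC content of 72.0% and 21 CG, was of another composition than the printed ones.

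Atxn3 itself checks the labels. Its brightest probe set read log2 levels of 6.53, 6.81 and 6.66 in Atxn3-WT against 3.60, 3.43 and 3.73 in Atxn3-KO MEFs, and the latter lay under the 25th percentile of each array. Arrays of 1 genotype correlated at 0.9985 to 0.9989. A beta-globin probe set, a product of red blood cells, stood apart on 2 arrays, with log2 levels of 11.93 and 12.54 in Atxn3-WT replicates 1 and 2, against 8.69 in Atxn3-WT replicate 3 and 8.34 to 8.97 in Atxn3-KO. For the markers, fold changes are therefore also given without those 2 arrays, a choice made after seeing the data, which leaves 1 Atxn3-WT array whose spread is assumed to be like that of the Atxn3-KO arrays.

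Of the 9 measured markers, 6 were lower in Atxn3-KO MEFs (Thy1, Cd34, Ddr2, Fap, S100a4 and Nt5e), 1 was higher (Pdpn), and Dpp4 and Cd44 did not pass the test. Each gene was represented by its brightest probe set, and a change was called at an adjusted p under 0.05 in limma over 45037 probe sets. By the same rule 14.7% of all genes were lower and 17.1% were higher, 31.8% in all. All genes include many read at a low level, while only 2 of the 9 markers had means below the array median. With probe sets under the median level left out, limma called 5793 of 22519 probe sets higher and 6451 lower. The median log2 fold change was -0.19 over the 9 markers and 0.0021 over all genes. The markers were chosen with earlier results of these data known, and their share was not tested against that of all genes. Of the 6 lower markers, Thy1 and Cd34 fell more than 2-fold and the others by 1.12- to 1.33-fold. Without the 2 globin-rich arrays 3 markers were called lower by limma (Thy1, Cd34 and Ddr2), and the calls of Fap, S100a4, Nt5e and Pdpn were lost with their directions kept.

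Counted over probe sets, 8 of the 18 were lower, 1 was higher and 9 did not pass, against 13.5% lower and 12.5% higher among all probe sets. The 3 arrays of one genotype did not overlap the 3 of the other for 10 of the 18, and for 41.1% of all probe sets. Under the stricter rule of the paper, which asks for a 2-fold change and an adjusted p no higher than 0.001, 2 probe sets were lower, those of Thy1 and Cd34. That rule called 0.649% of all genes lower and 1.28% higher. In bulk RNA, fewer cells that carry a marker and less of its RNA per cell cannot be told apart.

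**Figure D1:**
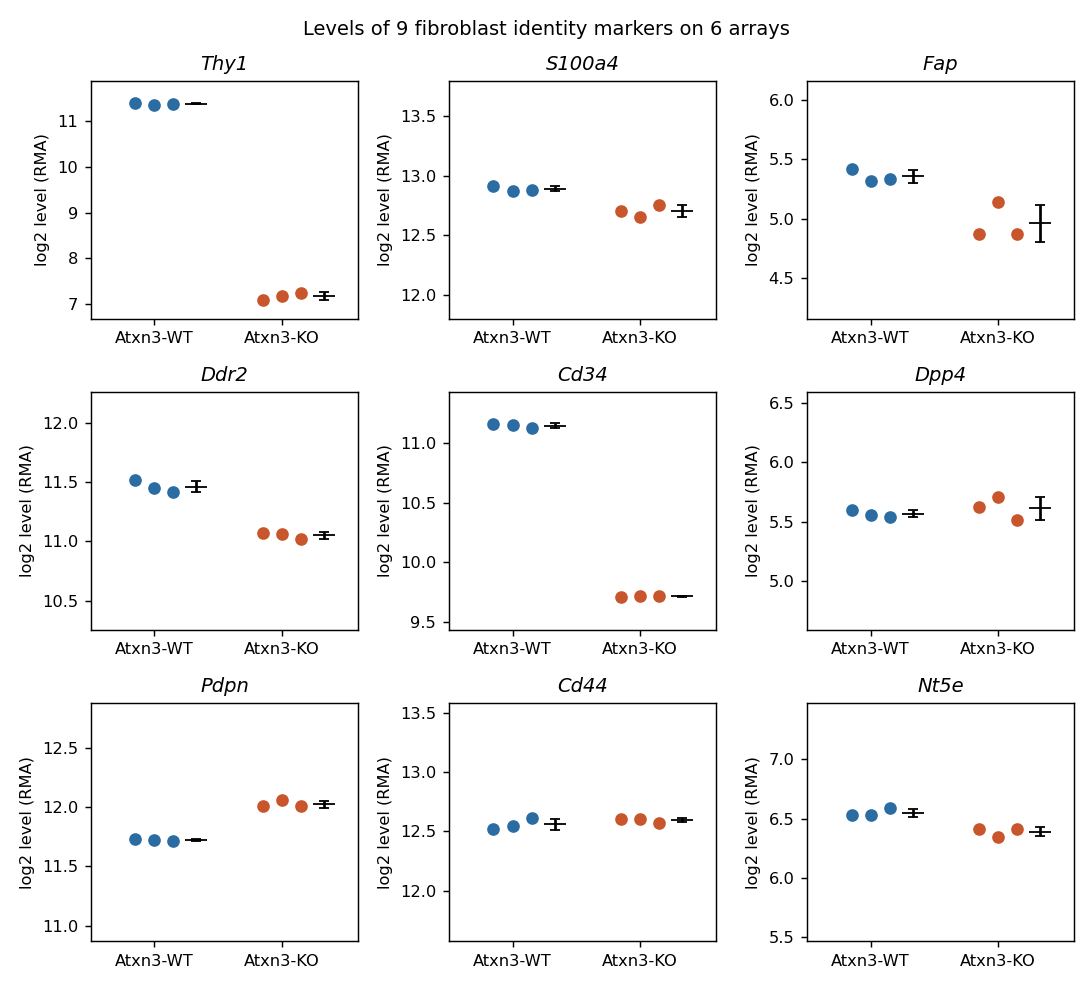
Log2 levels of the brightest probe set of each of the 9 measured markers on every array, in blue for Atxn3-WT and in orange for Atxn3-KO, with the mean and SD (n = 3 per genotype) drawn beside the points. Each panel has its own axis of log2 RMA values, which starts above 0. Thy1 drops from 11.39 to 7.18 and Cd34 from 11.15 to 9.71, Pdpn is higher in all 3 Atxn3-KO arrays, and the genotypes overlap for Dpp4 and Cd44.

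Thy1, the GPI-anchored glycoprotein that most often stands for fibroblast identity in sorting, was the marker with the largest change. Its only probe set, 1423135_at, read 11.40, 11.37 and 11.39 (log2 level) in Atxn3-WT and 7.09, 7.19 and 7.25 in Atxn3-KO MEFs. Every Atxn3-KO array was far below every Atxn3-WT array, and the spread within a genotype was small, with an SD of 0.018 in Atxn3-WT and 0.078 in Atxn3-KO. Thy1 fell by 4.21 on the log2 scale (SE 0.052, 95% confidence interval -4.33 to -4.09, limma adjusted p = 2.98e-08). This is an 18.5-fold reduction with an interval of 17 to 20.1, which leaves 5.4% of the Atxn3-WT level. Only 1 of the 18193 genes had a lower log2 fold change by its brightest probe set. The residual signal in Atxn3-KO still lay above the median of each array, 5.97 to 6.0, so the probe set was not at the bottom of the scale. The 2 globin-rich Atxn3-WT arrays read a Thy1 level like that of the other, and without them the log2 fold change was -4.21 (adjusted p = 0.000185).

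The partners of Thy1 had smaller values, without a test against Thy1 itself. The list of 12 held integrin chains and syndecan-4 (Sdc4), which bind Thy-1 or act beside it, Src kinases with their regulators, and Cbx5, a heterochromatin protein that is no known partner of Thy-1. Of these, 2 rose, 2 fell and 8 did not pass, with a median log2 fold change of 0.063. Pag1, a membrane adaptor that helps hold Src kinases in check, fell by 0.40 (adjusted p = 0.0011), and Fyn, a Src kinase, fell by 0.21 (adjusted p = 0.0118). Itgb5, an integrin subunit, rose by 0.19 (adjusted p = 0.015) and Sdc4 by 0.18 (adjusted p = 0.0187), and leaving out single arrays took the number that rose to between 0 and 2. Thy1 and Nt5e proteins both need a GPI anchor. Of 26 genes that build or attach it, 6 rose and 7 fell, among them Pign and Pigm, both lower by 0.51, and Pigv, higher by 0.49 (log2 fold changes), and the median was -0.047. The share called was 50%, against 31.8% of all genes.

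The genes nearest to Thy1 across the arrays were 3 with a like reduction. When every gene was centred on its own Atxn3-WT mean, the smallest root mean square differences from Thy1 over the 6 arrays were 0.164 for Gm6958, 0.218 for Galc, a lysosomal galactosylceramidase, and 0.407 for Bcl11b, a zinc finger transcription factor (log2 units). Their log2 fold changes were -4.06, -3.94 and -4.77. Galc and Bcl11b lie on the chromosome that carries Atxn3 in the RefSeq table of GRCm38.p6, and Thy1 does not. Gm6958 was not found on that chromosome, and its place was not established here. The likeness describes 6 arrays and was not tested.

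**Figure D2:**
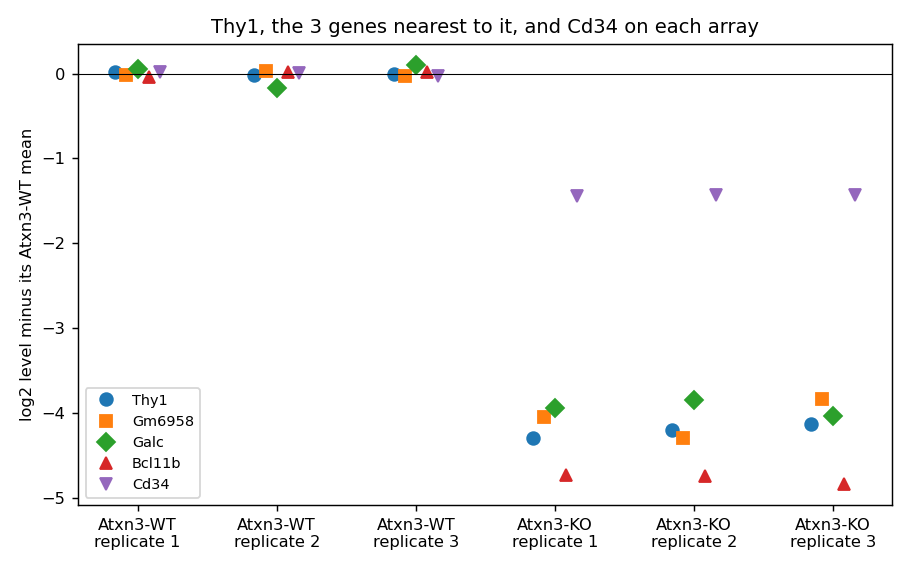
Log2 level minus the Atxn3-WT mean of the same gene, on each of the 6 arrays, for Thy1, the 3 genes whose values run nearest to it, and Cd34. In Atxn3-WT all 5 genes lie near 0, and in Atxn3-KO Thy1, Gm6958, Galc and Bcl11b lie near -4 to -5 while Cd34 lies near -1.44.

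Cd34, a transmembrane sialomucin of haematopoietic and endothelial progenitors that also marks interstitial fibroblasts, was the other marker with a large reduction. Its only probe set, 1416072_at, read 11.16, 11.16 and 11.13 (log2 level) in Atxn3-WT and 9.71, 9.72 and 9.71 in Atxn3-KO MEFs. The 2 genotypes were separated by far more than the spread within either, the SD being 0.020 in Atxn3-WT and 0.0049 in Atxn3-KO. Cd34 fell by 1.44 on the log2 scale (SE 0.040, interval -1.53 to -1.34, limma adjusted p = 1.31e-06), a 2.71-fold reduction with an interval of 2.54 to 2.89. Of all genes, 0.868% had a larger absolute log2 fold change. Without the 2 globin-rich arrays the value was -1.41 (adjusted p = 0.00108).

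The 2 other sialomucins of the CD34 family rose. Podxl2 (endoglycan) rose by 0.88 (log2 fold change, adjusted p = 2.68e-05), and Podxl (podocalyxin), which shares with CD34 the extended mucin-like stalk, rose by 0.60 (adjusted p = 0.000769). These were 2 of 5 measured sialomucins and selectins, and the other 3 did not pass. Cd34 also marks endothelial cells, and the endothelial markers had 1 of 12 higher (Egfl7, log2 fold change 0.26, adjusted p = 0.019), 11 that did not pass in limma and a median of 0.002. Of the 12, 9 had a mean below the array median in each genotype, and 4 lay under the 25th percentile in both. A change of those may not have been detectable.

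Ddr2, a receptor tyrosine kinase activated by fibrillar collagen, fell modestly on both of its probe sets. The brighter one, 1455688_at, read 11.52, 11.45 and 11.42 (log2 level) in Atxn3-WT and 11.07, 11.06 and 11.02 in Atxn3-KO MEFs. The genotypes did not overlap. Ddr2 fell by 0.41 on the log2 scale (SE 0.046, interval -0.52 to -0.30, adjusted p = 7e-04), a 1.33-fold reduction. The second, 1422738_at, read 10.87, 10.82 and 10.88 in Atxn3-WT against 10.61, 10.65 and 10.52 in Atxn3-KO, again without overlap, and fell by 0.26 (SE 0.050, adjusted p = 0.00739). The difference between the 2 probe sets went from 0.604 in Atxn3-WT to 0.455 in Atxn3-KO, with an exact two-sided permutation p of 0.1, the smallest that 3 against 3 arrays allow (0.32 after adjustment over 16 pairs of probe sets). Without the globin-rich arrays the brighter probe set gave -0.37 (adjusted p = 0.0362) and the second -0.28 (adjusted p = 0.102).

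Ddr2 is 1 of several receptors by which fibroblasts hold collagen. Among the 8 others measured, Itga1, the alpha chain of a collagen-binding integrin, rose by 0.76 (log2 fold change, adjusted p = 0.000159), and Mrc2 (Endo180), which takes up collagen for degradation, fell by 0.20 (adjusted p = 0.0148). The other 6 did not pass, and the median was -0.048.

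Fap and Dpp4 are related serine proteases that cut after proline, and they are near neighbours in the genome, with 2 genes, Gcg and Gm13561, between them in the RefSeq table of GRCm38.p6. Fap, the protease of activated stroma (probe set 1417552_at), read 5.42, 5.31 and 5.33 (log2 level) in Atxn3-WT and 4.87, 5.14 and 4.87 in Atxn3-KO MEFs. All 3 Atxn3-KO arrays were lower, and their spread (SD 0.16) was wider than that of Atxn3-WT (SD 0.056). Fap fell by 0.40 on the log2 scale (SE 0.081, interval -0.59 to -0.21, adjusted p = 0.0106), a 1.32-fold reduction. Both group means lay below the median of the arrays, so Fap was measured at a low signal, and without the globin-rich arrays the value was -0.37 (adjusted p = 0.155).

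Dpp4, the progenitor marker CD26, did not pass the test on any of its 4 probe sets. The brightest, 1438279_at, read 5.60, 5.56 and 5.54 (log2 level) in Atxn3-WT and 5.62, 5.71 and 5.51 in Atxn3-KO MEFs, and the genotypes overlapped. Its log2 fold change was 0.046 (SE 0.059, adjusted p = 0.634), and the interval of -0.092 to 0.18 spans 0. Without the globin-rich arrays it was 0.070 (adjusted p = 0.718). The other 3 gave -0.070, 0.042 and 0.040. All 4 had group means below the array median in both genotypes, and 2 of the 4 lay under the 25th percentile. Dpp4 was thus read at a low signal, and a difference may not have been detectable. The difference between the changes of Fap and Dpp4 was not tested.

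In the wider protease family 23.1% of genes were called, and in the progenitor program that Dpp4 marks 30%, against 31.8% of all genes. Of 13 DPP4 family members and prolyl peptidases, Dpp8, a cytosolic relative, rose by 0.17 (log2 fold change, adjusted p = 0.0209), Prcp, a lysosomal carboxypeptidase, fell by 0.18 (adjusted p = 0.0287) and Xpnpep1, an aminopeptidase, fell by 0.16 (adjusted p = 0.0431). With single arrays left out these counts ran from 0 to 1 higher and 0 to 2 lower. Of 10 genes known from Dpp4-positive and Pi16-positive fibroblast progenitors, 2 rose and 1 fell. Dpt, which encodes the matrix protein dermatopontin, fell by 0.79 (adjusted p = 3.85e-05), Sema3c, a secreted semaphorin, rose by 0.58 (adjusted p = 0.000183), and Cd55, a complement regulator read under the 25th percentile of the arrays in both genotypes, rose by 0.36, which is not exact at that level (adjusted p = 0.0149).

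Pdpn, the mucin-type glycoprotein podoplanin of lymphatic endothelium and reticular stroma, was the only measured marker that rose. Its probe set, 1419309_at, read 11.73, 11.72 and 11.72 (log2 level) in Atxn3-WT and 12.01, 12.06 and 12.01 in Atxn3-KO MEFs. The genotypes did not overlap, and the SD was 0.0077 in Atxn3-WT and 0.028 in Atxn3-KO. Pdpn rose by 0.30 on the log2 scale (SE 0.041, interval 0.20 to 0.40, adjusted p = 0.00169), a 1.23-fold increase with an interval of 1.15 to 1.32. Without the globin-rich arrays the value was 0.31 and the call was lost (adjusted p = 0.0565). Of 7 measured partners of podoplanin, the tetraspanin Cd9 rose by 0.36 (adjusted p = 0.000858), the lectin Lgals8 rose by 0.33 (adjusted p = 0.00149), the kinase Rock1 fell by 0.18 (adjusted p = 0.0259) and 4 did not pass.

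Cd44, the main surface receptor for hyaluronan and also a partner of podoplanin, did not pass the test on any of its 4 probe sets. The brightest, 1434376_at, read 12.52, 12.55 and 12.61 (log2 level) in Atxn3-WT and 12.61, 12.61 and 12.57 in Atxn3-KO MEFs. The genotypes overlapped, and the log2 fold change was 0.034 (SE 0.045, adjusted p = 0.646) with an interval of -0.071 to 0.14, and -0.019 (adjusted p = 0.901) without the globin-rich arrays. The second, 1423760_at, read 12.44, 12.52 and 12.54 against 12.62, 12.58 and 12.55. Here the 3 Atxn3-KO arrays lay just above the 3 Atxn3-WT arrays, and the log2 fold change was 0.084 (SE 0.047, adjusted p = 0.254). The remaining pair, 1452483_a_at and 1443265_at, gave -0.027 and 0.012, the last of these under the 25th percentile of the arrays in both genotypes.

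Of the genes around hyaluronan, the ligand of Cd44, 25% were called, against 31.8% of all genes. Has2, a hyaluronan synthase, rose by 1.29 (log2 fold change, SE 0.10, adjusted p = 0.000161), and Cemip, which takes part in hyaluronan breakdown, rose by 0.71 (adjusted p = 0.000467). Hapln4, a hyaluronan link protein, fell by 0.87 (adjusted p = 0.000234). Over the 20 measured genes of hyaluronan and of the ERM proteins that tie CD44 to actin, 3 rose, 2 fell and 15 did not pass, with a median of 0.016, and 1 or 2 were called lower with single arrays left out.

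Nt5e encodes CD73, the GPI-anchored enzyme that makes adenosine from extracellular AMP, and its 3 probe sets differed. The brightest, 1459023_at, read 6.53, 6.53 and 6.59 (log2 level) in Atxn3-WT and 6.41, 6.35 and 6.41 in Atxn3-KO MEFs. The genotypes did not overlap, and this probe set fell by 0.16 (SE 0.045, interval -0.26 to -0.053, adjusted p = 0.0377). This call was the least stable of the 7, since it was lost in 9 of the 13 settings planned, with adjusted p of 0.0623 to 0.127 when any single array was left out, and 0.159 without the 2 globin-rich arrays.

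The other 2 probe sets of Nt5e lay on either side of it. Probe set 1428547_at read 6.42, 6.39 and 6.58 in Atxn3-WT and 5.95, 5.86 and 6.07 in Atxn3-KO MEFs, and it fell by 0.50 (SE 0.074, interval -0.68 to -0.33, adjusted p = 0.00243). Its genotypes did not overlap, and it kept its call without the globin-rich arrays, at -0.62 (adjusted p = 0.0274). Probe set 1422974_at read 6.25, 6.40 and 6.37 against 6.36, 6.40 and 6.32, with overlap and a log2 fold change of 0.016 (SE 0.055, adjusted p = 0.87). The difference between these 2, 1422974_at minus 1428547_at, went from -0.12 in Atxn3-WT to 0.397 in Atxn3-KO, with an exact two-sided permutation p of 0.1, again the smallest possible, and 0.32 after adjustment. Which transcript each probe set reads was not analysed here.

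Nt5e works in a chain of enzymes that turn ATP outside the cell into adenosine and inosine, and adenosine then acts on receptors or is carried across the membrane. The list of 14 other measured genes of nucleotide and adenosine enzymes, receptors and transporters also holds some whose proteins act inside the cell. Of these 14, 5 rose, 3 fell and 6 did not pass, with a median of 0.055. The share called was 57.1%, against 31.8% of all genes. Ada, which deaminates adenosine, rose by 0.93 (log2 fold change, adjusted p = 7e-05), and Enpp3, which hydrolyses ATP to AMP, rose by 0.77 (adjusted p = 3.61e-05). Entpd1 (CD39), the enzyme that feeds AMP to CD73, fell by 0.53 (adjusted p = 0.0294), with both group means below the array median, and with single arrays left out 1 or 2 genes of the list were called lower. The nucleoside transporters Slc29a1, higher by 0.41 (adjusted p = 0.000791), and Slc29a2, lower by 0.25 (adjusted p = 0.0321), are among those counted and, like Sdc4 above, are named after their values were seen.

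S100a4, the calcium-binding protein once named fibroblast-specific protein, had the smallest change but 1 among the 7 called markers. Its probe set, 1424542_at, read 12.91, 12.87 and 12.88 (log2 level) in Atxn3-WT and 12.71, 12.65 and 12.75 in Atxn3-KO MEFs. The genotypes did not overlap, and S100a4 fell by 0.19 (SE 0.045, interval -0.29 to -0.079, adjusted p = 0.0217), a 1.14-fold reduction. Of all genes 31.8% had a larger absolute log2 fold change. The call was lost in 6 of the 13 planned settings, 5 of them with a single array left out (adjusted p of 0.0256 to 0.0808 over the 6 such fits, the call being kept only without Atxn3-KO replicate 3), and without the globin-rich arrays it was -0.18 (adjusted p = 0.214).

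Some other S100 genes rose while S100a4 was lower. S100a16 rose by 1.18 (log2 fold change, SE 0.059, adjusted p = 1.62e-05), S100a1 by 1.07 (SE 0.047, adjusted p = 8.47e-06) and S100a3 by 0.51 (SE 0.10, adjusted p = 0.00943). The S100a1 probe set is of a type that can also match related sequences. The same holds for Dpp4 1459973_x_at and, among genes named below, for the probe sets of Lynx1, Apcdd1, Epcam, Notch3, Acta2 and Wt1. Of 12 other S100 genes measured, 4 rose and 8 did not pass, with a median of 0.054. Thus 33.3% were called, near the 31.8% of all genes.

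**Figure D3:**
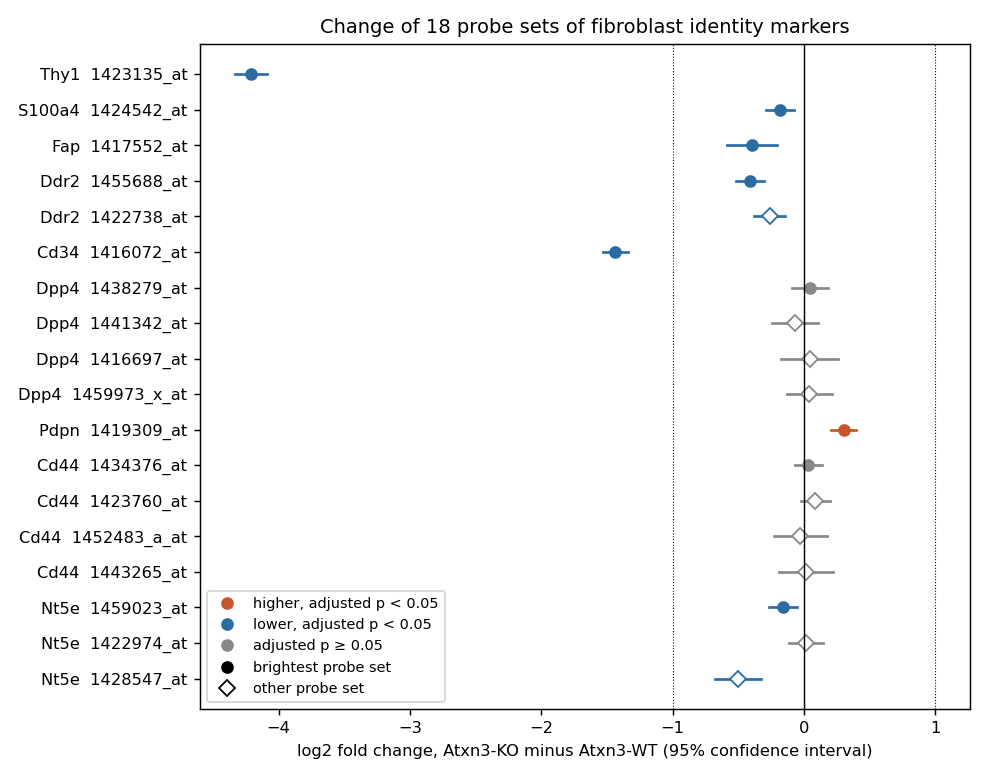
Log2 fold change, Atxn3-KO minus Atxn3-WT, of the 18 probe sets with its 95% confidence interval from limma. Filled circles are the brightest probe set of a gene, open diamonds the others, blue is lower, orange higher and grey not called, and dotted lines mark 2-fold. Thy1 and Cd34 alone lie beyond 2-fold, both Ddr2 probe sets lie below 0, and the 3 Nt5e probe sets spread from -0.50 to 0.016.

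Ordered by log2 fold change, the markers ran from Thy1 (-4.21) through Cd34 (-1.44), Ddr2 (-0.41), Fap (-0.40), S100a4 (-0.19) and Nt5e (-0.16) to Cd44 (0.034), Dpp4 (0.046) and Pdpn (0.30). The intervals of Thy1 and Cd34 were apart from each other and from all others. The interval of Fap overlapped those of Ddr2, S100a4 and Nt5e. Those of S100a4 and Nt5e overlapped each other and that of Dpp4, and that of Cd44 overlapped those of Nt5e and Dpp4. The markers of 1 sorting panel did not move as 1, since Thy1 fell by 4.21 while the value for Cd44 was 0.034 and that for Nt5e was -0.16.

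Ly6a was not measured, and its relatives give no common direction. Of 22 other genes of the Ly6 superfamily, small cysteine-rich proteins mostly held by GPI anchors, 3 rose, 3 fell and 16 did not pass, with a median of -0.038. Ly6f fell by 0.72 (log2 fold change, adjusted p = 0.00201), Cd59a, an inhibitor of the complement membrane attack complex, fell by 0.61 (adjusted p = 0.000598), and Lynx1, which modulates nicotinic receptors, rose by 0.46 (adjusted p = 0.000368). Ly6f was read below the array median in both genotypes.

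The label of the cells was read from 25 further mesenchymal and fibroblast genes. Of these, 24 were measured and 23 lay above the array median in both genotypes. Of the 24, 11 rose, 5 fell and 8 did not pass, with a median of 0.11. Thus 66.7% were called, against 31.8% of all genes, which include many read at a low level. With probe sets under the median level left out, limma called 5793 of 22519 probe sets higher and 6451 lower. The share of the list was not tested against genes of a like level. Their summed linear level ran from 150000 to 152000 in Atxn3-WT and from 157000 to 162000 in Atxn3-KO, while that of the 9 markers ran from 24800 to 25100 and from 20200 to 20300. Dcn, the matrix proteoglycan decorin, rose by 1.91 (log2 fold change, SE 0.073, adjusted p = 4.87e-06), Prrx1, a mesenchymal homeobox factor, by 1.11 (adjusted p = 5.69e-06) and Postn, the matricellular protein periostin, by 0.94 (adjusted p = 1.11e-05). The 5 that fell, named after their values were seen, were Twist2 (-0.36), P4ha1 (-0.33), Col3a1 (-0.28), Pdgfra (-0.28) and Col1a2 (-0.26).

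Other surface antigens of cultured stromal cells, the setting in which Thy1, Cd44 and Nt5e are read together, moved in both directions. Of 14 measured, 5 rose, 3 fell and 6 did not pass, with a median of 0.035. The share called was 57.1%, against 31.8% of all genes. Mme (CD10), a membrane peptidase, fell by 1.64 (log2 fold change, SE 0.076, adjusted p = 1.13e-05), Alcam (CD166), an adhesion molecule, fell by 1.34 (SE 0.21, adjusted p = 0.003), and Eng (CD105), a coreceptor for TGF-beta, rose by 1.33 (SE 0.058, adjusted p = 8.45e-06). Of 14 genes that tell papillary from reticular fibroblasts of the dermis, 6 rose, 3 fell and 5 did not pass, so that 64.3% were called. The largest changes were those of Crabp1, a retinoic acid binding protein, at -2.07 (adjusted p = 9e-07), Apcdd1, a Wnt inhibitor, at 1.23 (adjusted p = 5.37e-06) and Ntn1, a netrin, at -1.0 (adjusted p = 9.87e-06). The paper names Apcdd1 among the Wnt inhibitors that were higher on the arrays, but its RT-PCR found no significant change of Apcdd1. For Dcn, named above, that RT-PCR found a significant increase. The Apcdd1 probe set is of a type that can also match related sequences.

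**Figure D4:**
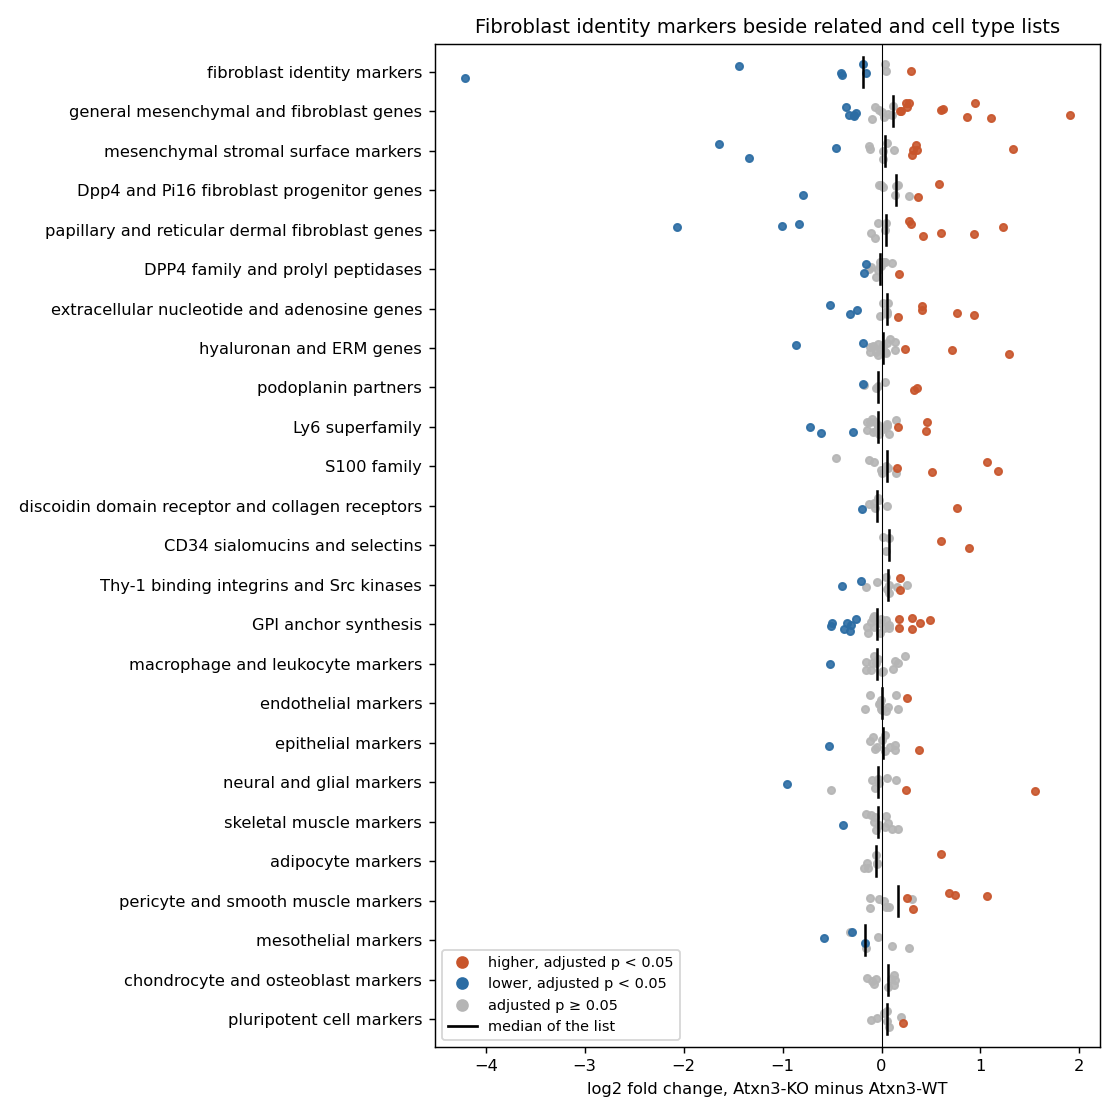
Log2 fold change, Atxn3-KO minus Atxn3-WT, of every measured gene (brightest probe set) in the fibroblast identity markers and in 24 lists of related and cell type genes, 1 row per list. Blue points are lower, orange higher and grey not called, and the bar is the median of the list. Thy1 is the point at -4.21 in the top row, and no gene of the other lists lies below -2.07.

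Markers of other cells that MEF cultures can hold were read beside these results. Of 14 macrophage and leukocyte markers, 9 had a mean below the array median in each genotype, their summed linear level ran from 768 to 803 in Atxn3-WT and from 724 to 766 in Atxn3-KO, 1 fell (Mertk, log2 fold change -0.52, adjusted p = 0.00188) and 13 did not pass. Thy1 is also a neuronal surface protein, and of 10 neural and glial genes Map2 rose by 1.55 (adjusted p = 2.26e-06), Tubb3 fell by 0.95 (adjusted p = 2.87e-05), Sox2, under the 25th percentile of the arrays, rose by an inexact 0.25 (adjusted p = 0.0268) and 7 did not pass. Of 12 pericyte and smooth muscle markers 5 rose (41.7%, against 31.8% of all genes) and 7 did not pass, with a median of 0.17. Cnn1 was at 1.06, Notch3 at 0.74 and Acta2 at 0.69. Those that did not pass include Rgs5 (0.30), Abcc9 (0.077), Kcnj8 (0.044) and Myh11 (0.024), all read below the array median and named after their values were seen. The summed linear level of the list ran from 20000 to 20400 in Atxn3-WT and from 27300 to 27900 in Atxn3-KO. In this sum the bright probe sets of Acta2 and Tagln, which rose by 0.26, weigh most. Of 8 mesothelial markers, a cell type that shares Pdpn, 3 fell, with Msln at -0.58, Wt1 at -0.30 and Bnc1, under the 25th percentile of the arrays, at -0.17. Their summed linear level overlapped between the genotypes, 1180 to 1350 in Atxn3-WT and 1170 to 1310 in Atxn3-KO, and 1 or 2 were called with single arrays left out.

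The remaining lists changed in few members. Epithelial markers had 1 of 12 higher (Epcam, log2 fold change 0.38) and 1 lower (Esrp2, -0.53), skeletal muscle 1 of 12 lower (Pax3, -0.39), adipocyte 1 of 7 higher (Fabp4, 0.61) and pluripotent cells 1 of 8 higher (Dppa5a, 0.22). For chondrocytes and osteoblasts, 0 of 9 were called by limma, with 1 at an unadjusted p under 0.05, and Sox9 had a value of 0.12 and Col9a1 of -0.073. With single arrays left out in turn, the called counts of podoplanin partners and collagen receptors that were lower each ran from 0 to 1, those of endothelial and pluripotent markers that were higher from 0 to 1, and those of neural markers and of the Dpp4 and Pi16 progenitor genes that were higher from 1 to 2. The epithelial counts ran from 1 to 2 in each direction. Without the 2 globin-rich arrays, 5 general mesenchymal genes were called higher and 2 lower, 3 stromal surface markers higher and 3 lower, 2 S100 genes higher, 3 pericyte and smooth muscle markers higher, and 2 hyaluronan genes higher and 1 lower. The part of any of these cell types in the changes of the fibroblast markers was not tested.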

How the data were processed

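Values deposited by the authors are on a log2 scale after RMA, a background correction with quantile normalization and a summary over the probes of each probe set. RMA gives all arrays like distributions and so removes any shift shared by most genes. The submitters' notes name RMA and limma, without versions, and no genome build. The number of arrays limits the precision, and scanner files were not used here. Of 45101 probe sets, 64 controls were left out, and limma 3.58.1 in R 4.3.3 fitted Atxn3-KO minus Atxn3-WT on the other 45037 with lmFit and eBayes, equal array weights, no filter on low values and Benjamini-Hochberg adjustment over all of them. The authors' linear model was weighted, with weights that are not named in the sources used here, so array weights were an alternative.

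The platform annotation named 1 gene for 34945 probe sets, several for 932 and none for 9160. A gene was represented by its brightest such probe set over the 6 arrays. Levels of different genes were not set against each other. For some lists they were summed on the linear scale, where the brightest probe sets weigh most. Probe sets of 1 gene were compared only to pick the brightest and by the change in their difference between the genotypes, by exact permutation over arrays. A fold change was called not exact where a group mean lay under the 25th percentile of every array. Named genes were all markers, Atxn3, up to 3 genes per list with the largest called change (up to 2 of the highest level where none was called) and the 3 genes nearest to Thy1. The markers and all lists were chosen with earlier results of these data known. The fit was tested on simulated data. The alternatives tried were a replicate block, array weights, quantile normalization once more, centring of the arrays, a filter on low levels, a trended and robust variance, stricter thresholds, the mean over a gene's probe sets and leaving out arrays.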

Additional observations from a re-analysis of the deposited data

How the results depend on the processing

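Over 13 planned settings, Thy1, Cd34, Ddr2, Fap and Pdpn kept direction and call in all 64 values computed, Fap having none under the filter on low levels. Of 237 recomputed fold changes of the 18 probe sets, 204 kept direction and side of the threshold, 20 lost the call, 1 gained it and 12 turned, all of the latter uncalled. At the paper's thresholds 0 marker genes were higher and 2 lower, and 0 and 2 probe sets. Without Atxn3-WT replicates 1 and 2, chosen after seeing the data, limma called 0 genes higher and 3 lower, and 0 and 4 probe sets, from fewer arrays. With a trended and robust variance model 2 probe sets were higher, the second being Cd44 1423760_at (adjusted p = 0.0456). With each array left out in turn, 4 to 5 genes and 6 to 7 probe sets were lower, and 1 of each higher. Equal replicate numbers mark no shared source in the labels (correlations of deviations between same-numbered arrays 0.021, -0.023 and -0.036), and with the number as a replicate block the calls over all probe sets went from 5627 higher and 6069 lower to 4814 and 4987. Under the block the adjusted p was 0.0535 for S100a4 and 0.0753 for Nt5e. Centring the arrays gave 0.0605 and the variance model 0.104 for Nt5e.

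The values that turned, with the range over single arrays left out, were these. Dpp4 ran from -0.001 (Atxn3-KO replicate 2 left out) to 0.0971, its probe set 1416697_at from -0.0615 (Atxn3-KO replicate 1) to 0.1248 and 1459973_x_at from -0.0242 (Atxn3-KO replicate 2) to 0.1156. Cd44 was -0.0189 without the 2 globin-rich arrays. Its probe set 1443265_at was -0.0056 with array weights and ran from -0.0788 (Atxn3-KO replicate 3) through -0.0074 (Atxn3-WT replicate 3) to 0.0989, and 1452483_a_at ran from -0.105 through 0.0049 (Atxn3-WT replicate 2) to 0.0589 (Atxn3-KO replicate 3). Nt5e 1422974_at was -0.0292 (Atxn3-WT replicate 1), -0.0032 (Atxn3-KO replicate 2) and at most 0.0456, and -0.015 without the globin-rich arrays. Of 624 recomputed counts over the other lists, 526 were within 1.5 times and 98 moved. The causes were not tested.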
